A study of Mus musculus with 4 samples.

Results

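Border-associated macrophages are the resident macrophages of the meninges, the perivascular spaces and the choroid plexus, the compartments that meet the cerebrospinal fluid. They take up proteins, lipids and debris from the fluid through scavenger receptors, and part of them present antigen on MHC class II. They share the CSF1 receptor with microglia, the macrophages inside the brain tissue, but are told apart from them by Mrc1 (CD206), Lyve1 and Cd163, which microglia lack, and by low P2ry12 and Tmem119.

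In the present single-nucleus RNA-seq (snRNA-seq) of mouse brain, 149 of 78728 nuclei (0.189%, 95% interval 0.160 to 0.222) were assigned to this cell type. Nuclei were selected on their UMIs, the individually tagged transcripts counted per gene. A member had at least 3 UMIs summed over Mrc1, F13a1, Cd163, Lyve1, Pf4 and Stab1. It had at most 1 UMI in each of 4 sums of other cell types: P2ry12, Tmem119 and Siglech for microglia, Flt1 and Cldn5 for endothelium, Rbfox3, Slc17a7, Slc17a6, Gad1 and Gad2 for neurons, and Mog and Aqp4 for glia. The marker sum was reached by 473 nuclei, and the exclusions removed 324 of them, 250 through the neuron genes, 114 through the endothelial, 75 through the microglial and 75 through the glial genes, with overlap between these groups.

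The nuclei came from male C57BL/6J mice 8 weeks old that had received an AAV9 vector into the cisterna magna at 4 weeks. AAV-VEGF-C carried mouse VEGF-C, a growth factor of lymphatic vessels. AAV-CTRL carried a soluble fragment of its receptor VEGFR-3 that does not bind VEGF-C, so the control mice were injected too and also produced a secreted protein. The brains of 5 mice were pooled per vector, and 1 library was made per vector and region label. Values by library are given in one order throughout: the cortex label first, the striatum label second, and within each label AAV-CTRL before AAV-VEGF-C.

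Each group was thus a single library, no test between groups was possible, and intervals cover counting error alone. They are 95% exact intervals that take UMIs as independent and leave out the spread between mice and between nuclei. The libraries held 17168 to 23724 nuclei and 63165470 to 78332657 UMIs. Barcodes found in more than 1 library numbered 598, and 1 member carried such a barcode. Genes of striatal projection neurons went against the region labels: Ppp1r1b stood at 62.6 and 74.8 CPM (counts of a gene per 1000000 UMIs of the nuclei summed) in the libraries labelled cortex and at 18.1 and 18.1 CPM in those labelled striatum. The regions are therefore named here by label alone.

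The 4 libraries contributed 25, 18, 82 and 24 members. Members were shallow nuclei, with medians of 1504, 1333.5, 1384.5 and 1415.5 UMIs against 2272 to 2873 over all nuclei of a library, and close to microglia nuclei, at 1481.5 to 1912.5. Summed over members, the libraries held 44406, 25508, 125308 and 40875 UMIs, so that 1 UMI was worth 22.5, 39.2, 7.98 and 24.5 CPM. Most UMIs therefore came from the library labelled striatum AAV-CTRL, and the library labelled cortex AAV-VEGF-C gave the coarsest values.

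**Figure D1:**
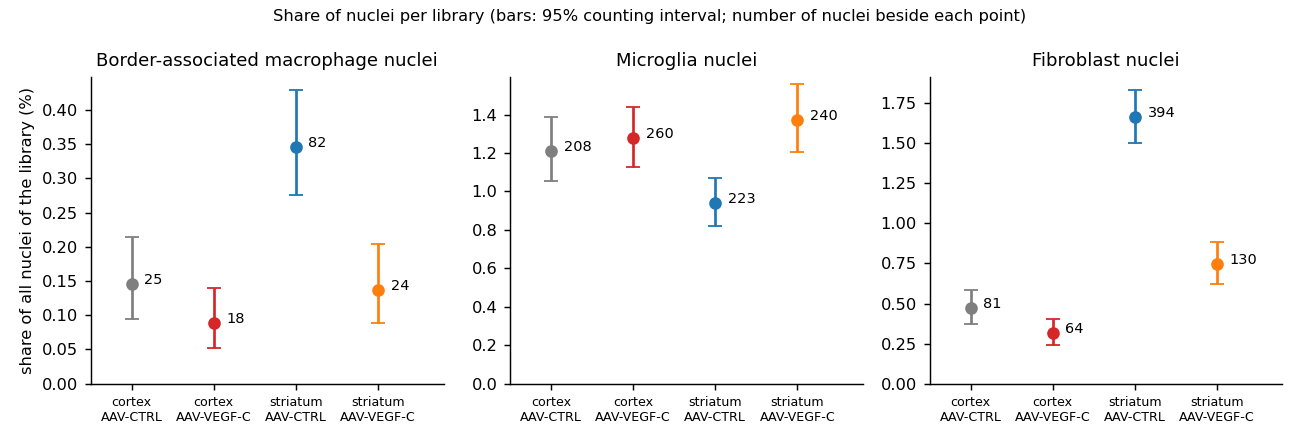
Share of border-associated macrophage nuclei among all nuclei of each library, in percent, with exact binomial 95% intervals, beside fibroblast and microglia nuclei. The library labelled striatum AAV-CTRL had the highest share of members, 0.346%, and of fibroblasts.

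Mrc1, the mannose receptor that serves as the standard label of these cells, was the most frequently met of the rule genes. It lies on the forward strand of chromosome 2, chr2:14229392-14332057 of GRCm38, and had 76, 71, 306 and 67 UMIs in members, or 1711, 2783, 2442 and 1639 CPM. A Mrc1 UMI was found in 125 of 149 members (83.9%). Microglia nuclei stood at 5.48 CPM.

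F13a1, which encodes the A chain of coagulation factor XIII (chr13:36867178-37050244, reverse strand), had 71, 43, 224 and 70 UMIs, or 1599, 1686, 1788 and 1713 CPM. It was the steadiest of the rule genes between libraries. Stab1, a scavenger receptor (chr14:31139013-31168641, reverse strand), had 42, 39, 178 and 47 UMIs and was met in 109 members. In microglia nuclei Stab1 stood at 110 CPM, the highest of the rule genes there, against 1296 CPM in members.

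The remaining rule genes were sparse. The haemoglobin scavenger receptor Cd163 (chr6:124304656-124330527, forward strand) had 10, 5, 42 and 16 UMIs in 44 members. The chemokine Pf4 (chr5:90772435-90773383, forward strand) had 5, 10, 22 and 5 UMIs in 38 members. The hyaluronan receptor Lyve1 (chr7:110850607-110863239, reverse strand) had 1, 5, 21 and 2 UMIs in 19 members. Cd163, Pf4 and Lyve1 had no UMI in 931 microglia nuclei, which by their own definition held at most 1 UMI of the rule genes. Since these 6 genes chose the nuclei, their levels are a description. At least 3 of the 6 genes were present in 102 members, 2 in 32 and a single one in 15.

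The promoters of the marker genes are shown because PU.1, the transcription factor that macrophages depend on, binds purine-rich letters around GAGGAAG. The 90 bases before the RefSeq start of 4 markers (GRCm38.p6) were, 5′ to 3′ on the strand of the gene, with GAGGAAG or its reverse complement CTTCCTC in capitals:
Mrc1, chr2:14229324-14229413, forward strand: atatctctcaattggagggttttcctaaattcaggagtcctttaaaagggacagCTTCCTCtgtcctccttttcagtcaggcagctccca
F13a1, upstream start, chr13:37050245-37050334, reverse strand: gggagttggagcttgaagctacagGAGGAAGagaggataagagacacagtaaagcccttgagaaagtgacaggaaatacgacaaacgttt
Cd163, chr6:124304561-124304650, forward strand: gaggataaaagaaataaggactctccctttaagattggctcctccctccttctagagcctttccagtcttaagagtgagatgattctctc
Pf4, chr5:90772345-90772434, forward strand: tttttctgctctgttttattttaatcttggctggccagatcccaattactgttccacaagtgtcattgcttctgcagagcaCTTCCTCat
In the full promoter window of 300 bases (both strands), these letters occurred at −168 to −162 and −36 to −30 of Mrc1, at −66 to −60 and +17 to +23 of the upstream F13a1 start, at +14 to +20 of the other F13a1 start and at −9 to −3 of Pf4, and not in the Cd163 window. Of 32851 promoters of this length, 13.6% held them. The MAF half-site TGCTGA (19.5% of promoters) and the AP-1 letters TGAGTCA (5.20%) were in none of the 5 windows. A match is a description of the letters and not a binding site.

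**Figure D2:**
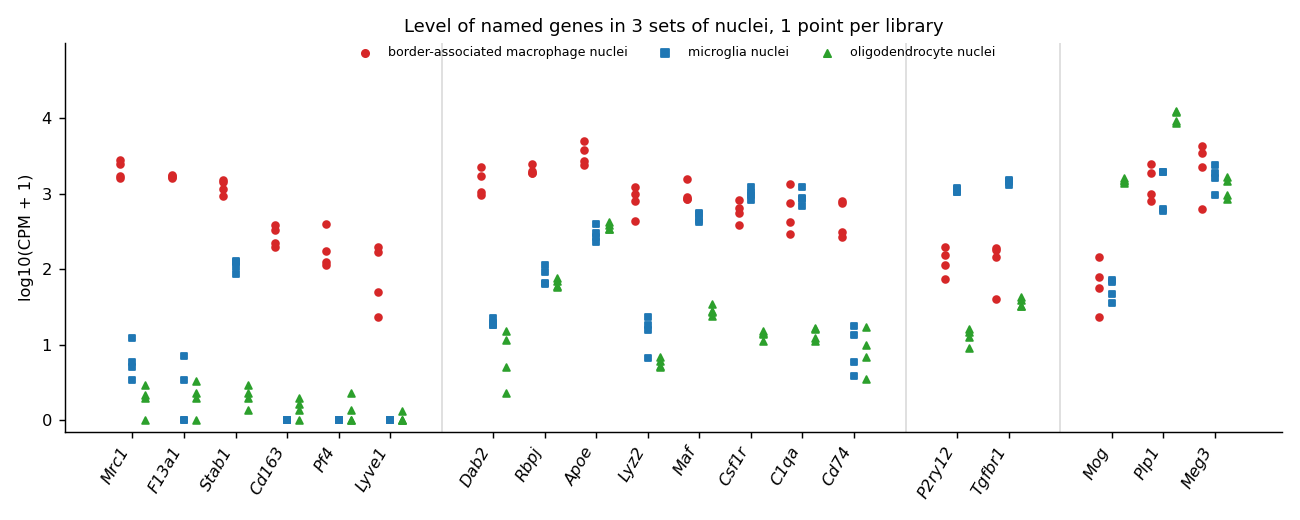
Levels of named genes as log10 of CPM plus 1, with 1 point per library, in member (circles), microglia (squares) and oligodendrocyte nuclei (triangles). Vertical lines part the rule genes, macrophage genes, microglia genes and genes of neurons and oligodendrocytes. Mrc1, F13a1, Dab2 and Rbpj stood above microglia nuclei in all 4 libraries.

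Genes that the rule did not use went with the name for most of the nuclei. Their lists were written with earlier results of these data known, so they describe the nuclei and do not test the name. A list of 20 other border macrophage genes had 915 UMIs in 135 of 149 members (90.6%), 3876 CPM against 539 CPM in microglia nuclei. Of the nuclei that passed the exclusions with a marker sum of 0, 27.1% also had a UMI of this list. Oligodendrocyte nuclei, which serve as a background of free RNA, stood at 70.3 CPM. Fibroblast nuclei stood at 1214 CPM, with the leading gene Dab2 at 189 CPM, so the list was not particular to macrophages. A list of 18 general macrophage genes stood at 4884 CPM and was met in 142 members (95.3%), against 30.0% of nuclei with a marker sum of 0. It stood at 7675 CPM in microglia, 107 CPM in oligodendrocyte and 207 CPM in fibroblast nuclei. A list of 12 further microglia genes went the other way, 881 CPM in members and 5647 CPM in microglia nuclei. This list stood at 190 CPM in oligodendrocyte and 932 CPM in fibroblast nuclei. It was met in 102 members, and the rule had already limited their UMIs of other microglia genes. In 3 members there was no UMI of either macrophage list.

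Just outside the threshold, 42 nuclei passed the exclusions with a marker sum of 2, and just inside it 21 nuclei had a sum of 3. The other border macrophage list stood at 665 CPM at a sum of 2, 835 CPM at 3, 3437 CPM at 4, 3824 CPM at 5 to 9 and 5762 CPM at 10 or more. The neuron list went the opposite way, 19329, 19432, 6571, 7454 and 4159 CPM. In these pooled values, members with a sum of 3 were closer to the nuclei just outside than to members with higher sums. Much of their neuron RNA lay in deep members with 405, 131, 126 and 86 neuron UMIs, against a mean of 42.1 per nucleus. Those members held 9025, 3654, 3682 and 3364 UMIs of all genes, so they weigh on the pooled level of both lists. The levels at a sum of 3 without them were not computed, so the closeness is not read as a trait of the other members.

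**Figure D3:**
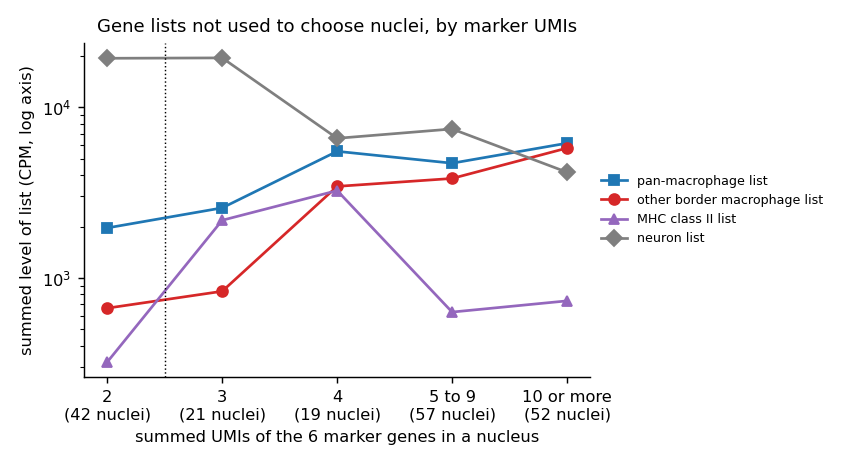
Summed level of 4 gene lists (CPM, log axis) in nuclei that passed the exclusions, by their summed marker UMIs, with the threshold as a dotted line. The border macrophage list stood at 665 CPM at a sum of 2 and at 5762 CPM at 10 or more, and the neuron list at 19329 and 4159 CPM.

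RNA of other cell types was present in members and is given here because it moved with several results. The neuron list (8 genes, led by the long noncoding RNA Meg3) stood at 13759, 4234, 7478 and 8709 CPM, against 6683 CPM in microglia and 5097 CPM in oligodendrocyte nuclei. Of its 2012 UMIs, 1057 lay in 7 members with at least 30 neuron UMIs each, 4 of them under the label cortex AAV-CTRL, 1 under striatum AAV-CTRL and 2 under striatum AAV-VEGF-C. The cortex AAV-VEGF-C library had none of these members and the lowest neuron level.

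The oligodendrocyte list stood at 2520 CPM in members, at 2293 CPM in microglia and at 23063 CPM in oligodendrocyte nuclei. Myelin RNA in members was thus near that in microglia nuclei. The fibroblast list had 11, 0, 42 and 2 UMIs and stood at 233 CPM, against 6005 CPM in 669 fibroblast nuclei. Neutrophil markers had 4 UMIs in all, with S100a8 and S100a9 at 0, and lymphocyte markers had 5, with Cd3e at 0. With 3 counts as the floor, a gene at 0 over all members may have stood at up to 12.7 CPM.

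In 3 members of the striatum AAV-CTRL library, at least 3 UMIs of lymphatic endothelial genes were present. These nuclei had 2, 3 and 6 UMIs of Mmrn1, 2, 2 and 3 of Reln, 1, 1 and 2 of Flt4, and 2, 0 and 2 of Prox1, the transcription factor that sets lymphatic identity. They had 3, 3 and 2 UMIs of Mrc1, which lymphatic endothelium also makes, and no UMI of Csf1r, Ptprc or Lyve1. Their markers went against the macrophage name, although they met the rule. Scrublet, which compares each nucleus with simulated doublets, marked 3 members, 2 under cortex AAV-CTRL and 1 under striatum AAV-CTRL.

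Genes outside the rule were ranked by their ratio over all other nuclei. Those ranked were met in at least 10% of members and were at least 2-fold above other nuclei in every library. The highest ratio belonged to Ms4a4a (497-fold), a membrane protein of the family that also includes Ms4a7 (268-fold) and Ms4a6b (112-fold). Lectin and scavenger receptors followed: Msr1, which binds modified lipoproteins, at 429-fold, Mgl2 at 188-fold, Clec4a1 at 154-fold, Clec10a at 143-fold and Clec4a2 at 107-fold. Aoah, an enzyme that inactivates endotoxin, stood at 181-fold and the lysozyme gene Lyz2 at 147-fold. The chemokine Ccl12 was 269-fold and the interferon-inducible genes Ifi207 and Ifi204 were 219-fold and 142-fold above other nuclei. The unnamed genes Gm40304 (460-fold) and Gm30489 (212-fold) completed the 15 genes with the highest ratios. Several of these ratios rest on few UMIs. Ms4a4a had 25 in 17 members, 1 of them under cortex AAV-CTRL, and Mgl2 had 24 in 18, while Lyz2 had 192 in 77.

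The contrast with microglia was built into the rule, so the following counts are a description. Of 11106 genes with at least 20 UMIs, 77 (0.693%) were at least 2-fold higher in members in all 4 libraries and 82 (0.738%) at least 2-fold lower. A set at 0 UMIs was taken as 3 counts, and a gene was never called higher in the set that was at 0. The mean log2 ratio of members over microglia was highest for Dab2 (6.22), an adaptor of endocytosis, followed by Aoah (6.15), the MHC class II chaperone Cd74 (6.03), Lyz2 (5.89), Ms4a7 (4.99), Mndal (4.74), the Notch effector Rbpj (4.67), the integrin Itga4 (4.60), the scavenger collectin Colec12 (4.44) and Gm4951 (4.14). For Aoah, Ms4a7, Mndal and Colec12, microglia had 0 UMIs in at least 1 library, so these values understate the ratio.

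Among the genes lower than in microglia were Plxdc2 (−4.21), Selplg (−4.06), Nav2 (−3.98), the TGF-β receptor Tgfbr1 (−3.59), Sparc (−3.37), Olfml3 (−3.29), Epb41l2 (−3.03), 8030442B05Rik (−2.95) and Rapgef5 (−2.94). Members had 0 UMIs of 8030442B05Rik in 3 libraries and of Sparc in 1, so their difference is understated. Several of these, such as Olfml3 and Sparc, are known microglia genes. Of 12 other microglia genes measured, 8 were at least 2-fold lower in all 4 libraries and none higher, with a median log2 ratio, pooled over libraries, of −3.12 beside 0.02 over all genes tested. Of the 10 other border macrophage genes measured, 3 were higher and none lower, with a median of 5.26.

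Scavenging genes stood above their level in microglia. Dab2 had 47, 57, 213 and 39 UMIs (1058, 2235, 1700 and 954 CPM), against 18.9 CPM in microglia nuclei. Colec12 stood at 322 CPM against 13.4 CPM in microglia, and Msr1 at 174 CPM against 0.609 CPM. The list of 12 such genes stood at 2499 CPM, against 588 CPM in microglia, 275 CPM in oligodendrocyte and 1693 CPM in fibroblast nuclei. Of its 8 measured genes, 2 were at least 2-fold higher in every library and none lower (median log2 ratio 2.38).

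The lipid handling list stood higher in members mainly through 1 gene. Apoe, the main apolipoprotein of the brain, had 120, 129, 472 and 97 UMIs, or 2702, 5057, 3767 and 2373 CPM, against 294 CPM in microglia. Its 818 UMIs made up most of the 1154 UMIs of the lipid list. The cholesterol exporter Abca1 (309 and 253 CPM in members and microglia) and Abca9 (377 and 343 CPM) differed less. Of 11 measured lipid genes, 1 was at least 2-fold higher and none lower, and the median was 0.14.

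Complement and lysosomal genes were shared with microglia. C1qa, a chain of the complement starter C1q, stood at 682 CPM in members and 919 CPM in microglia, C1qb at 436 and 701 CPM, and C1qc at 504 and 680 CPM. None of 8 measured complement genes was at least 2-fold higher or lower in every library (median 0.07). The lysosomal protein precursor Psap stood at 801 CPM against 876 CPM, while the protease Ctsd was lower in members (445 against 1389 CPM) and Ctsb (978 against 511 CPM) and Ctsc (500 against 134 CPM) were higher. Of 13 phagocytic receptor genes measured, 2 were higher and 2 lower, and Mertk, a receptor for apoptotic cells, stood at 491 against 1195 CPM.

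Transcription factors showed a contrast of the same kind between genes. Rbpj had 88, 48, 315 and 77 UMIs, or 1982, 1882, 2514 and 1884 CPM, and microglia nuclei stood at 84.0 CPM. The macrophage factors Maf (961 and 483 CPM), Runx1 (648 and 544 CPM) and Zeb2 (1567 and 1282 CPM) were within about 2-fold of microglia. Of 14 factors measured, 1 was at least 2-fold higher and 1 lower in every library, with a median of 0.10.

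The growth factor list stood at 690 CPM in members and the chemokine list at 237 CPM. The iron list stood at 1923 CPM, against 1493 CPM in microglia and 1956 CPM in oligodendrocyte nuclei. Csf1r, the receptor that keeps macrophages alive, had 17, 21, 82 and 23 UMIs (606 CPM over all members, 1014 CPM in microglia). Igf1, a growth factor, had 15, 4, 20 and 1 UMIs, and stood at 169 against 15.2 CPM in microglia. Ccl12 had 26 UMIs, and other chemokines such as Ccl9, Ccl6 and Ccl24 had 5 to 8. Of the interferon response list, 1 of 8 measured genes, Bst2, was at least 2-fold higher than in microglia in every library. Ifi207 stood at 136 CPM over all members against 0.609 CPM in microglia. The ferritin gene Fth1 stood at 1131 CPM and 1062 CPM, and the iron exporter Slc40a1 at 225 and 63.3 CPM.

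The VEGF family was read mainly through its coreceptor. Nrp1, a neuropilin that binds VEGF and semaphorins, had 26, 11, 90 and 10 UMIs in 12, 7, 44 and 7 members, or 586, 431, 718 and 245 CPM, and stood at 178 CPM in microglia nuclei. Nrp2, the neuropilin that binds VEGF-C, had 5, 2, 20 and 4 UMIs. Flt4, which encodes VEGFR-3, had 0, 0, 4 and 0 UMIs, and these 4 lay in the 3 members with lymphatic endothelial genes. Kdr had 1, 0, 4 and 0 UMIs. Among the ligands, Vegfc had 0, 0, 1 and 1 UMIs, Vegfd 0, 0, 1 and 0, Vegfb 0, 3, 4 and 1, Vegfa 3, 0, 1 and 2, and Pgf none. At this depth 0 UMIs allowed up to 67.6, 118, 23.9 and 73.4 CPM by library, so a difference in the receptor or the ligand between vectors was not detectable. The control vector holds a part of the Flt4 sequence and the other vector the Vegfc sequence, and whether transcripts of either vector were counted was not tested.

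MHC class II genes and Lyve1, a rule gene, were each met in a part of the members. A UMI of the class II list was present in 4, 1, 22 and 9 members (16, 5.56, 26.8 and 37.5%), 36 in all (24.2%, 17.5 to 31.8), and Lyve1 in 1, 3, 13 and 2, 19 in all (12.8%, 7.86 to 19.2). Both were met in 2 members and neither in 96. In oligodendrocyte nuclei, which should lack them, 1.21, 1.98, 3.43 and 3.29% had a class II UMI, at medians of 1739 to 2140 UMIs, and 1 nucleus of 3475 had Lyve1. After thinning to 1000 UMIs per nucleus, with 15 shallower members left out, 34 of 134 had a class II UMI, 15 had Lyve1 and 2 had both. Members near the threshold held much of the class II signal. It was present in 33.3% of nuclei with a marker sum of 3 and 57.9% with a sum of 4, against 19.3% at 5 to 9 and 13.5% at 10 or more, at 2176, 3248, 631 and 734 CPM. Cd74 made up most of the class II signal, with 12, 8, 102 and 31 UMIs in 4, 1, 19 and 6 members, followed by H2-Eb1 (49 UMIs), H2-Aa (45) and H2-Ab1 (30). At least 5 class II UMIs were found in 3, 1, 12 and 4 members.

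The 36 members with class II UMIs also differed in genes outside the list. Ccr2, the chemokine receptor of monocytes, had 17 UMIs in them and 7 in the other 113 members, a log2 CPM ratio of 2.87 (1.53 to 4.38). The antigen-processing protease Ctss (1.20, 0.41 to 1.98), the fractalkine receptor Cx3cr1 (1.44, 0.65 to 2.23) and Lyz2 (1.04, 0.61 to 1.47) were also higher. Dab2 was lower, at −1.09 (−1.56 to −0.65). The other border macrophage list, which Dab2 leads, rose with the marker sum, from 835 CPM at 3 to 5762 CPM at 10 or more. The part of the marker sum in the Dab2 value was not tested. Rule genes were lower too, such as Cd163 at −1.07 (−2.19 to −0.09) and Lyve1 at −2.17 (−5.28 to −0.17), but these chose the nuclei, and members with class II UMIs were more frequent at low marker sums, so nothing is read from them. Csf1r (0.32, −0.23 to 0.86) and Apoe (−0.08, −0.32 to 0.16) had intervals that included no difference. Ccr2 and Dab2 had the same signs in the library labelled striatum AAV-CTRL on its own, 22 members against 60, with Ccr2 at 4.63 (1.78 to 10.09) and Dab2 at −0.98 (−1.57 to −0.44).

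Values of other cell types moved with this split. The neuron list was lower in the members with class II UMIs (−0.999, −1.18 to −0.82), the oligodendrocyte list was higher (0.57), and the monocyte and dendritic list was higher (2.10, 1.20 to 3.02). Median depth was 1506.5 and 1384 UMIs. The monocyte and dendritic list of 9 genes had 46 UMIs in 22 members. Ccr2 led it with 24 UMIs, Cd209a had 7, 1, 1 and 0, and Flt3 and Ace had 5 each. Its genes Ly6c2, Xcr1, Clec9a and Itgax were at 0 in all members. The part of these in the result was not tested. The split was made on the same nuclei in which these genes were measured, so it is given with no test.

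**Figure D4:**
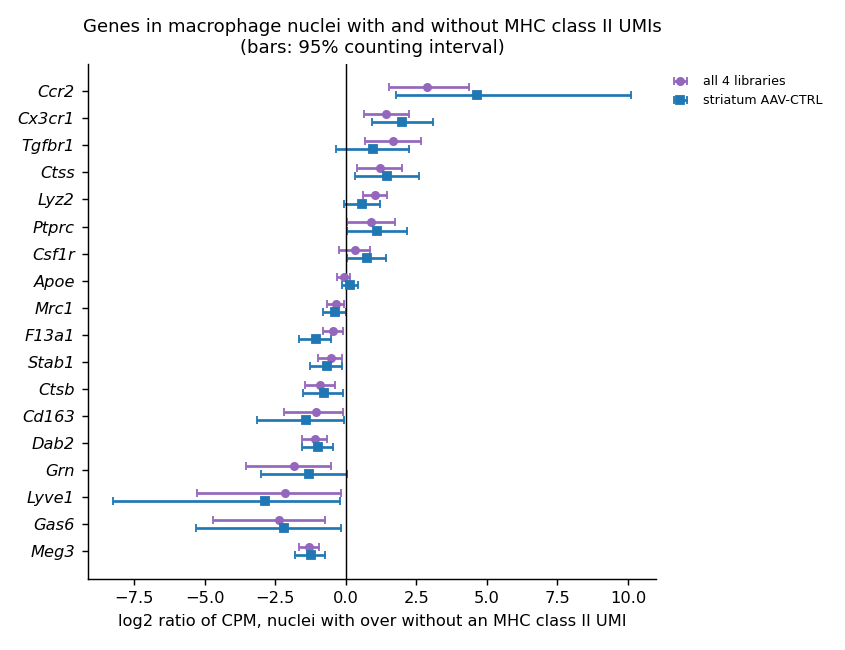
Log2 CPM ratio of members with a UMI of the MHC class II list over members without one, for 18 named genes with exact 95% intervals, over all 4 libraries (circles) and in striatum AAV-CTRL alone (squares). Over all libraries Ccr2 stood at 2.87 and Dab2 at −1.09, and the part of the marker sum in the Dab2 value was not tested.

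The question of the study's design, what VEGF-C does to these cells, can be put as a share of nuclei and as gene levels. Members were 0.146% (0.0943 to 0.215), 0.0884% (0.0524 to 0.140), 0.346% (0.275 to 0.429) and 0.137% (0.0881 to 0.204) of the nuclei. The log2 ratio of AAV-VEGF-C over AAV-CTRL was −0.72 (−1.68 to 0.21) under the cortex label and −1.33 (−2.05 to −0.66), a fold of 0.398, under the striatum label. The interval included no difference under the cortex label and left it out under the striatum label. When each nucleus was thinned to 1000 UMIs before the rule was applied, the striatum value was −0.58 (−1.16 to −0.02). The libraries then held 27, 26, 80 and 41 members, so the nuclei changed along with their depth.

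Fibroblast nuclei, which share the meninges and perivascular spaces with these macrophages, moved with the share. They numbered 81, 64, 394 and 130, and their log2 ratio was −0.59 (−1.08 to −0.10) under the cortex label and −1.16 (−1.46 to −0.87) under the striatum label. Per 100 fibroblast nuclei there were 30.9, 28.1, 20.8 and 18.5 members, a log2 ratio of −0.13 (−1.09 to 0.80) and −0.17 (−0.89 to 0.50). Microglia nuclei numbered 208, 260, 223 and 240, and their share had log2 ratios of 0.08 (−0.19 to 0.35) and 0.55 (0.28 to 0.82). Per 100 microglia nuclei there were 12.02, 6.92, 36.8 and 10.0 members, a log2 ratio of −0.80 (−1.76 to 0.14) and −1.88 (−2.60 to −1.21). The striatum-labelled difference was therefore present against microglia and within counting error against fibroblasts. How much border tissue entered each dissection was not tested, and with 1 library per group it cannot be told apart from an effect of the vector.

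The share also differed between region labels. The log2 ratio of striatum over cortex was 1.25 (0.59 to 1.96) with AAV-CTRL and 0.64 (−0.31 to 1.60) with AAV-VEGF-C, and fibroblasts stood at 1.82 (1.47 to 2.18) and 1.24 (0.80 to 1.70). Under both vectors the higher member share came with a higher fibroblast share.

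In gene levels, 44 of 575 genes with at least 20 UMIs over both libraries (7.65%) were at least 2-fold higher with AAV-VEGF-C under the cortex label and 77 (13.4%) at least 2-fold lower. Under the striatum label, 112 of 2135 (5.25%) were higher and 230 (10.8%) lower. The share that counting error alone would put past 2-fold is not given here. Member UMIs were fewer with AAV-VEGF-C under both labels, so these counts are not read as a shift toward lower levels. The interval left out no change for 98 genes under the cortex label and 170 under the striatum label. With 553 genes measured under both, past 2-fold the same way under both labels were 2 genes, both lower: the glutamate receptor subunit Gria1 at −2.32 (−4.68 to −0.61) and −1.27 (−2.98 to 0.08), and the endosomal Rabep1 at −1.45 (−3.46 to 0.14) and −1.59 (−3.54 to −0.12). Each had an interval that included no change under one label.

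The lowest genes under the cortex label were Erbb4 (48 UMIs and 1 UMI, −4.79), Tnr (41 and 1, −4.56), Dlgap2 (32 and 1, −4.20), Gpc5 (23 and 1, −3.72) and Grip1 (22 and 1, −3.66). These are genes of neurons and other neural cells, and the UMIs of Erbb4 lay in 6 members of cortex AAV-CTRL and 1 of cortex AAV-VEGF-C. The highest were Maml2 (6 and 16 UMIs, 2.21), a coactivator of Notch signalling, the transferrin gene Trf (7 and 15, 1.90), the transcription factor Mitf (7 and 14, 1.80), Nrros (8 and 15, 1.71) and Fbxw7 (7 and 13, 1.69). Each rests on few UMIs in 1 or both libraries, and several reversed under alternatives. After thinning, which also changed the members, Erbb4 stood at 1.05, Gpc5 at 1.64 and Grip1 at 0.05. With exclusion sums of 0, Mitf stood at −0.24 and Fbxw7 at −1.24. The cause of these reversals was not tested.

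Among the lowest under the striatum label were the phosphatase gene Ppm1e (33 UMIs and 1 UMI, −3.43), Pcnp (29 and 1, −3.24), Cept1 (26 and 1, −3.08) and Fbxw7 (24 and 1, −2.97). The highest were Pex5l (7 and 17, 2.90), Tenm3 (12 and 24, 2.62), Lrrtm3 (8 and 13, 2.32), the phosphodiesterase Pde4b (35 and 53, 2.21) and Ctnna3 (8 and 12, 2.20). The 24 Tenm3 UMIs of AAV-VEGF-C lay in 4 members, and its ratio was −0.54 without the members that held at least 30 neuron UMIs. Fbxw7 was thus among the highest under one label and among the lowest under the other.

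The macrophage lists had opposite signs under the region labels. The other border macrophage list stood at 2973, 5841, 4198 and 2642 CPM, a log2 ratio of 0.97 (0.63 to 1.32) under the cortex label and −0.67 (−0.98 to −0.37) under the striatum label. Of its 4 measured genes, 1 was at least 2-fold higher under the cortex label and 1 at least 2-fold lower under the striatum label, with medians of 0.91 and −0.67 beside 0.10 and −0.05 over all genes tested. Dab2 made up 356 of its 915 UMIs. Dab2 itself stood at 1.08 (0.50 to 1.67) and −0.83 (−1.36 to −0.34), the latter at 0.20 with exclusion sums of 0, which left 38 members.

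A group of 5 functional lists had intervals away from 0 with these signs, but not all were separate from the other border macrophage list. Scavenging shared Dab2 and Colec12 with it, and Dab2 made up 356 of the 590 UMIs of scavenging. Scavenging stood at 0.68 (0.23 to 1.13) and −0.69 (−1.07 to −0.31), lipid handling at 0.77 (0.45 to 1.08) and −0.52 (−0.79 to −0.27), complement at 0.55 (0.11 to 0.98) and −0.81 (−1.21 to −0.44), phagocytic receptors at 0.70 (0.16 to 1.24) and −0.72 (−1.26 to −0.22), and proteases and matrix genes at 0.90 (0.48 to 1.32) and −0.44 (−0.76 to −0.13). In order, 1 of 2, 1 of 2, 1 of 4, 0 of 1 and 2 of 5 measured genes were at least 2-fold higher under the cortex label, and 2 of 5, 1 of 4, 2 of 5, 0 of 4 and 2 of 7 at least 2-fold lower under the striatum label, beside 7.65% and 10.8% of all genes tested. With 1 to 7 genes per list, these counts do not set the lists apart. The single phagocytic receptor gene measured under the cortex label, Mertk, stood at −0.20, against the sign of its list. Among single genes, Apoe stood at 0.90 (0.53 to 1.27) and −0.67 (−0.997 to −0.35). C1qa had 19, 34, 96 and 12 UMIs, with 1.64 (0.79 to 2.53) and −1.38 (−2.39 to −0.51), whereas the other chains of C1q stood at 0.31 (−1.02 to 1.59) and −1.01 (−2.08 to −0.08) for C1qb and −0.50 (−1.66 to 0.56) and −0.64 (−1.59 to 0.20) for C1qc. Ctsd had 10, 18, 70 and 7, with 1.65 (0.46 to 2.93) and −1.71 (−3.07 to −0.59). Mrc1, a rule gene, stood at 0.70 (0.21 to 1.19) and −0.58 (−0.98 to −0.19). The cortex AAV-VEGF-C library was the highest of the 4 for these 5 lists and for Apoe, C1qa, Ctsd and Mrc1.

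The following lists did not have both intervals away from 0 with these signs. The iron list stood at 0.93 (0.42 to 1.45) and 0.10 (−0.27 to 0.47), and the VEGF family list at −0.33 (−1.28 to 0.56) and −1.18 (−1.98 to −0.46). The general macrophage list stood at 0.37 (0.05 to 0.69) and −0.20 (−0.44 to 0.04), and the class II list at −0.67 (−1.96 to 0.47) and 0.18 (−0.23 to 0.58). F13a1 stood at 0.08 (−0.51 to 0.64) and −0.06 (−0.47 to 0.33). Nrp1 was at −0.44 (−1.61 to 0.63) and −1.55 (−2.66 to −0.61), lower with AAV-VEGF-C under both labels, with an interval that included no difference under the cortex label. The growth factor genes Grn (6, 12, 39 and 2 UMIs) and Igf1 were at −2.67 (−5.76 to −0.72) and −2.71 (−8.08 to −0.06) under the striatum label.

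Of the 553 genes measured under both labels, 24 had intervals away from 0 in opposite directions. Higher under the cortex label and lower under the striatum label were 11: Slc8a1, Apoe, Slc9a9, the selenoprotein gene Selenop, Dab2, the prostaglandin synthase Hpgds, Ext1, C1qa, Ctsd, Fbxw7 and Mitf. The reverse held for 13: Erbb4, Tenm3, Grik2, Meg3, Tenm2, Adgrb3, Ctnnd2, Nfasc, Ntrk2, Cntnap2, Dlg2, Lrrc4c and Malat1.

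Neuron RNA moved against the macrophage lists. The neuron list stood at −1.70 (−2.01 to −1.40) under the cortex label, where 6 of its 8 genes were at least 2-fold lower, and at 0.22 (0.04 to 0.40) under the striatum label, where none was 2-fold higher or lower. Its leading gene Meg3 had 191, 16, 287 and 142 UMIs, with −2.78 (−3.61 to −2.04) and 0.60 (0.30 to 0.90). Without the 7 members rich in neuron UMIs, the neuron list was at −0.31 (−0.67 to 0.04) under the cortex label and at −0.10 under the striatum label.

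Without those 7 members, the other border macrophage list stood at 0.72 (0.36 to 1.09) and −0.52 (−0.83 to −0.21), Dab2 at 0.72 (0.13 to 1.33) and −0.67 (−1.20 to −0.17), and Apoe at 0.59 (0.21 to 0.98) and −0.53 (−0.87 to −0.21). Complement under the cortex label was at 0.20 (−0.24 to 0.65), phagocytic receptors at 0.38 (−0.18 to 0.93) and Mrc1 at 0.41 (−0.09 to 0.91), with intervals that then included no difference. With nuclei thinned to 1000 UMIs, the other border macrophage list was at 0.64 (0.27 to 1.03) and −0.15 (−0.42 to 0.12), Mrc1 at 0.18 and −0.04, and Apoe under the striatum label at 0.03. Thus with thinned nuclei the striatum-labelled differences of these were no longer past counting error. Thinning also changed which nuclei were members (27, 26, 80 and 41 by library), so this is not the same set at lower depth.

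**Figure D5:**
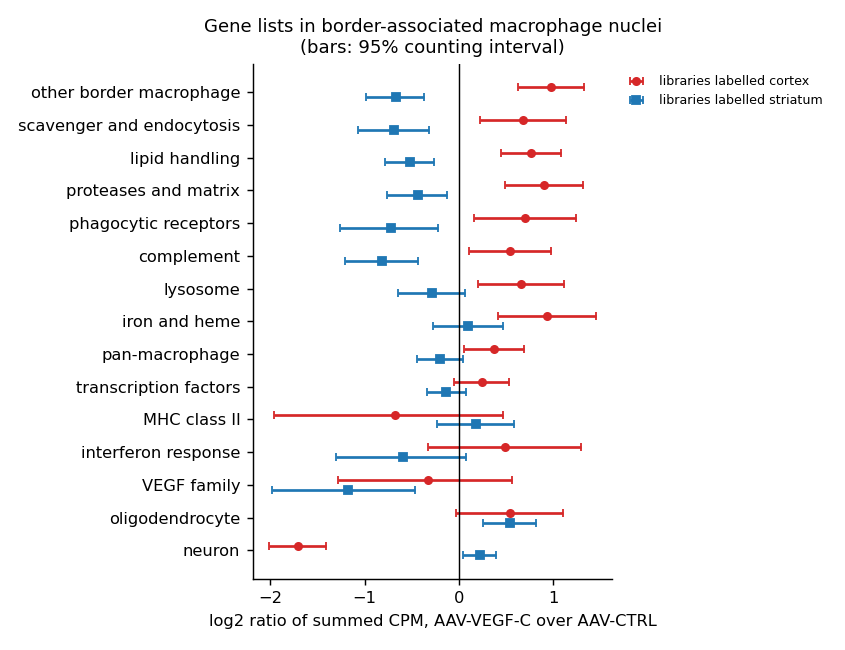
Log2 CPM ratio of AAV-VEGF-C over AAV-CTRL in member nuclei for gene lists, under the cortex and the striatum label, with exact 95% intervals. The other border macrophage list stood at 0.97 and −0.67, and the neuron list at −1.70 and 0.22.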

How the data were processed

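Nuclei from 4 libraries (10x Genomics, 1 per vector and region label) were analysed from the deposited UMI counts, which the authors made with Cell Ranger, version 5.0.1 per the file headers and 5.1.1 per the submitters' processing notes, on mm10. Whether intronic reads were counted is not given in the sources used here. The counts were raw, over 31053 genes, with no value normalized by the authors.

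Member UMIs were summed per gene and library and scaled to CPM. Ratios had exact conditional binomial intervals, shares Clopper-Pearson and levels Poisson intervals (95%, counting error only). Genes needed 20 UMIs over the libraries compared, and 2-fold stood in for a test. A count of 0 was set to 3 counts, which bounds a ratio in one direction, and gave no call in the other. Microglia nuclei had at least 3 UMIs of P2ry12, Tmem119 and Siglech, and oligodendrocyte nuclei at least 2 of Mog, with other sums at most 1. Scrublet (scanpy 1.11.5, expected rate 8%) marked doublets, which were kept. The ratio intervals were tested on simulated data. Python 3.11.15, scipy 1.17.1, numpy 2.4.6 and pandas 2.3.3 were used. Positions are from GENCODE vM21 and promoters from RefSeq, which had an entry for 4 of the 5 markers.

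Members, lists and comparisons were chosen with earlier results of these data known. Genes named are the rule genes, the 4 genes with most UMIs of each list described, the 15 highest over other nuclei, the 10 each way against microglia, the 5 each way per region label between vectors, genes past 2-fold under both labels and the VEGF family. Some genes that met this rule are not reported here. Genes with intervals away from 0 in opposite directions, genes differing between members with and without class II UMIs, and the low-count genes of the lists were named after their values were seen. Alternatives were marker minimums, exclusion limits, gene minimums, thinning, doublets, scaling and left-out members.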

Additional observations from a re-analysis of the deposited data

Results flagged for a closer look

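Lists and genes whose intervals lay away from 0 in opposite directions under the cortex and the striatum label are given with their log2 ratio of AAV-VEGF-C over AAV-CTRL under each, in that order. The difference between the labels was not tested. Scavenging shared Dab2 and Colec12 with the other border macrophage list. The 6 rule genes summed stood at 0.55 and −0.32, the other border macrophage list at 0.97 and −0.67, scavenging at 0.68 and −0.69, phagocytic receptors at 0.70 and −0.72, complement at 0.55 and −0.81, lipid handling at 0.77 and −0.52, and proteases and matrix genes at 0.90 and −0.44. The neuron list had the reverse signs, −1.70 and 0.22. Of single genes, Mrc1 stood at 0.70 and −0.58, Dab2 at 1.08 and −0.83, Apoe at 0.90 and −0.67, C1qa at 1.64 and −1.38, Ctsd at 1.65 and −1.71, and Meg3 at −2.78 and 0.60. With the 7 members with at least 30 neuron UMIs left out, the 6 rule genes stood at 0.26 (−0.05 to 0.57) and −0.19 (−0.42 to 0.03). This removed all RNA of those members and 1057 of the 2012 neuron UMIs, so the part of neuron RNA itself was not tested.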

How the results depend on the processing

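No paired analysis was possible because each group had 1 library. Over 16 alternatives, 658 of 734 values of single genes and lists stayed within the interval of the reported value, 64 left it in the same direction and 12 reversed. The last 3 alternatives, which left out members without macrophage UMIs, with lymphatic or with neuron UMIs, were chosen after seeing the data. The cause of these changes was not tested.

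With exclusion sums of 0 there were 38 members (6, 5, 21 and 6), and counts then rest on few nuclei. For that setting the genes 2-fold higher and lower numbered 5 and 15 under the cortex label (reported 44 and 77), 24 and 36 under the striatum label (112 and 230), and 37 and 32 against microglia (77 and 82). A marker minimum of 5 gave 23 and 36 (cortex), 65 and 151 (striatum), and 16.5% of members with class II UMIs against 24.2%. Gene minimums of 1, 10 and 50 UMIs gave 625, 237 and 5 higher and 780, 276 and 12 lower (cortex), and 780, 451 and 13 higher and 893, 646 and 25 lower (striatum), since more or fewer genes are tested. Thinning gave 27 lower (cortex), 55 and 126 (striatum), and moved the striatum share ratio from −1.33 to −0.58. It also changed the members, to 27, 26, 80 and 41 by library. Without the neuron-rich members there were 17 and 31 (cortex). Median-of-ratios scaling gave 27 higher (cortex) and shifted log2 ratios by −0.11 and 0.05.

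Reversed were the neuron list under the striatum label (−0.052 and −0.094 at marker minimums of 4 and 5, −0.10 without neuron-rich members), Apoe (0.027) and Meg3 (−0.12) under the striatum label and Erbb4 (1.05), Gpc5 (1.64) and Grip1 (0.054) under the cortex label after thinning, Dab2 under the striatum label (0.20) and Mitf (−0.24) and Fbxw7 (−1.24) under the cortex label with exclusion sums of 0, and Tenm3 under the striatum label (−0.54) without neuron-rich members.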
